A study of Mus musculus with 8 samples.

Results

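The genes described here are 32 mouse chaperones, chaperonins and heat shock proteins, taken as a list of gene symbols. Of these, 29 have a feature with that symbol in the platform annotation, among the 19087 genes measured, and Hspa1b, Hsp90ab1 and Hsf1 are not analysed here. Messenger RNA came from B splenocytes (spleen B cells) of 8 mice, each hybridised to 1 array with the single dye Cy3. All mice were labelled C57BL/6. Of these, 4 were wild type, and the lymphoma group was 4 mice with c-myc and Cdk4(R24C), a form of the kinase Cdk4 that INK4 inhibitors do not bind. The sources used here do not state their age, any treatment, the promoter that drives c-myc or the purity of the cells. Values are log2 intensities, scaled so that the arrays share their 75th percentile over features with a listed gene. The comparison asks which chaperone transcripts differ between the lymphoma cells and normal splenic B cells.

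Chaperones hold unfolded proteins and help them to fold, and most fall into families that work in sequence. HSP70 proteins bind short hydrophobic stretches, DNAJ proteins bring them their clients, HSP110 proteins exchange their nucleotide, and HSP90 finishes the folding of kinases and receptors. Chaperonins are barrels that enclose a client: CCT (also called TRiC) folds actin and tubulin in the cytosol, and the Hspd1 barrel with its Hspe1 lid folds proteins imported into mitochondria. Many of these genes are induced by heat shock factor 1, which binds inverted repeats of GAA in their promoters. Others answer to the unfolded protein response of the endoplasmic reticulum or carry sites bound by MYC.

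With 1 array per mouse, n = 4 per group, which bounds the precision of every value. Slide 1 held wild type 1 and 2 with lymphoma 1 and 2, and slide 2 the remaining arrays. With the group as the other term, 2 features passed limma's test for slide and 0 members did, though Dnajb4 and Tcp1 had an unadjusted p of 0.0112 and 0.0149. The brightest Myc feature differed by 0.37 (adjusted p = 0.533). It was near the ceiling, here at least 80% of the highest intensity of an array, on 1 wild type and 3 lymphoma arrays. The mean level of 9 measured B cell markers was 12.83 to 13.51 in wild type and 12.90 to 13.17 in lymphoma, and none was at background on all arrays, background being the level of olfactory receptor features. Of the 8 measured myeloid markers, 4 were lower in lymphoma at adjusted p under 0.05 (Lyz2, Mpeg1, Fcgr1 and Vcam1), against 1.27% of all genes, and the list level was 10.87 to 12.06 in wild type and 10.20 to 10.82 in lymphoma. Itgam, of the same list, differed by 1.22 the other way with all lymphomas above all controls (adjusted p = 0.105), and rose by 1.49 without wild type 1 (adjusted p = 0.0142). Of the 9 immediate early genes, 2 were lower (Jun and Egr1), with list levels of 13.61 to 14.33 and 13.04 to 13.32. Atf3 differed by 2.06 the other way with no overlap (adjusted p = 0.0523), and rose by 2.53 without wild type 1 (adjusted p = 0.00208). Mean levels of the T cell list were 7.86 to 8.25 in wild type and 7.49 to 7.88 in lymphoma, those of the erythroid list 7.61 to 9.07 and 7.59 to 8.28, and those of the proliferation list 10.70 to 11.37 and 10.70 to 11.46. The part of these shifts in the chaperone values was not tested, and in such a bulk sample fewer cells of a type and less RNA per cell cannot be told apart. Wild type 1 and wild type 2 each stood apart from the other controls. Across features, wild type 1 had a mean correlation of 0.963 with the lymphomas and 0.941 with the other wild type arrays, and wild type 2 had 0.918 and 0.935. Values without wild type 1 are given beside those from all 8 arrays, and those without wild type 2 for Cct5, Hspe1 and Cct8. Wild type 1 was singled out for its likeness to the lymphomas, so the counts without it are no separate support.

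The promoters of 4 members show the kinds of sites the family is known for. The sequences below are the 250 bases before the annotated start in RefSeq (assembly GRCm38.p6), 5′ to 3′ on the strand of the gene. Capitals mark matches to a heat shock element (GAANNTTC or TTCNNGAA, searched on both strands, where overlapping matches run together) in Hspe1, Hspb1 and Hspa1a. In Hspa5 they mark the endoplasmic reticulum stress element, which is CCAAT, then 9 bases of any kind, then CCACG. The windows are chr1:55087898-55088147 on the plus strand for Hspe1, chr5:135887669-135887918 on the plus strand for Hspb1, chr17:34972157-34972406 on the minus strand for Hspa1a and chr2:34771840-34772089 on the plus strand for Hspa5.
Hspe1: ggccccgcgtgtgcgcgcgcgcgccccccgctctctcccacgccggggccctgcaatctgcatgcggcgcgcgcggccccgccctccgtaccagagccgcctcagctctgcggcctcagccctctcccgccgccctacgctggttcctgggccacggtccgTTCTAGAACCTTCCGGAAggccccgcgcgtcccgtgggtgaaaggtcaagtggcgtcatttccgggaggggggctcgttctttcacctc
Hspb1: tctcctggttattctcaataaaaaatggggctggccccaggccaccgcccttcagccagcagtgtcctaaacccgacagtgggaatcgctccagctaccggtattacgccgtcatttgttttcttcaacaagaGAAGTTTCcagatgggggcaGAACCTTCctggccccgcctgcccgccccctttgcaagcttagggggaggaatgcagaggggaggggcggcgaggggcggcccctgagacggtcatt
Hspa1a: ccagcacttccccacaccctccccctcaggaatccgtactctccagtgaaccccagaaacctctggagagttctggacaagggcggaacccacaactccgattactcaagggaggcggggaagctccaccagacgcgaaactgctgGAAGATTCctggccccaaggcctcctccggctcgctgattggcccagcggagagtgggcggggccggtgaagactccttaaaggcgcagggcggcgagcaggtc
Hspa5: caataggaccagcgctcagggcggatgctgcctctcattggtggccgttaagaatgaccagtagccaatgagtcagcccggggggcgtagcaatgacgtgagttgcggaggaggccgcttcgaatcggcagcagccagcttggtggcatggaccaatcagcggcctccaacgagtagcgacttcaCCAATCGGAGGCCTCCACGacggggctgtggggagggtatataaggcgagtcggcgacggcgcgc
In windows of 300 bases, with 50 bases after the start included, 14 of the 25 members with a window (56.0%) held a heat shock element match, against 17.0% of 27025 genes. Not all 14 are separate sequences. The Hspa1a and Hspa1b windows were identical at 296 of 300 positions, and Hspd1 and Hspe1 share their matches. The printed Hspe1 window holds 3 overlapping matches, and 285 bases of its full window are shared with a second Hspd1 window on the opposite strand. The genes for barrel and lid lie head to head, and their annotated 5′ ends overlap by 96 bases. The E-box CACGTG, the sequence that MYC and MAX bind, was in the windows of Hspd1 and Hsph1, which is 8.0% of members against 8.09% of genes. Hspa5 was the only member with the stress element, which 0.137% of genes hold. A match is a description of the letters and not evidence of binding.

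With all 8 arrays, no member passed an adjusted p of 0.05 in limma, where 2.09% of the 19087 genes passed. Their adjusted p lay between 0.135 for Cct4 and 0.997. At an unadjusted p under 0.05, 8 members were higher in lymphoma (27.6%, against 8.19% of genes) and 3 were lower (10.3%, against 7.73%). The groups did not overlap in 3 members (10.3%, against 9.99% of genes). These were Hspb1, with all lymphomas above, and Hspa5 and Hspa4, with all lymphomas below. The difference was positive in 20 of 29 members (69.0%, against 56.7% of genes), with a median of 0.27 over the members and 0.06 over all genes. Without wild type 1, 6 of 29 members (20.7%) rose at adjusted p under 0.05 and none fell, where 8.15% of genes passed, 4.28% upward. The 6 were Cct4, Cct5, Cct7, Hspd1, Hspe1 and Hspa9, which are chaperonin subunits and the mitochondrial HSP70. In that fit 3 members (10.3%) were lower at an unadjusted p under 0.05, where 9.95% of genes were. At the same threshold 10 members were higher, where 11.7% of genes were. With array quality weights, which give atypical arrays less say, 4 members rose (Hspa9, Cct4, Cct7 and Hspd1) where 7.55% of genes passed.

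**Figure D1:**
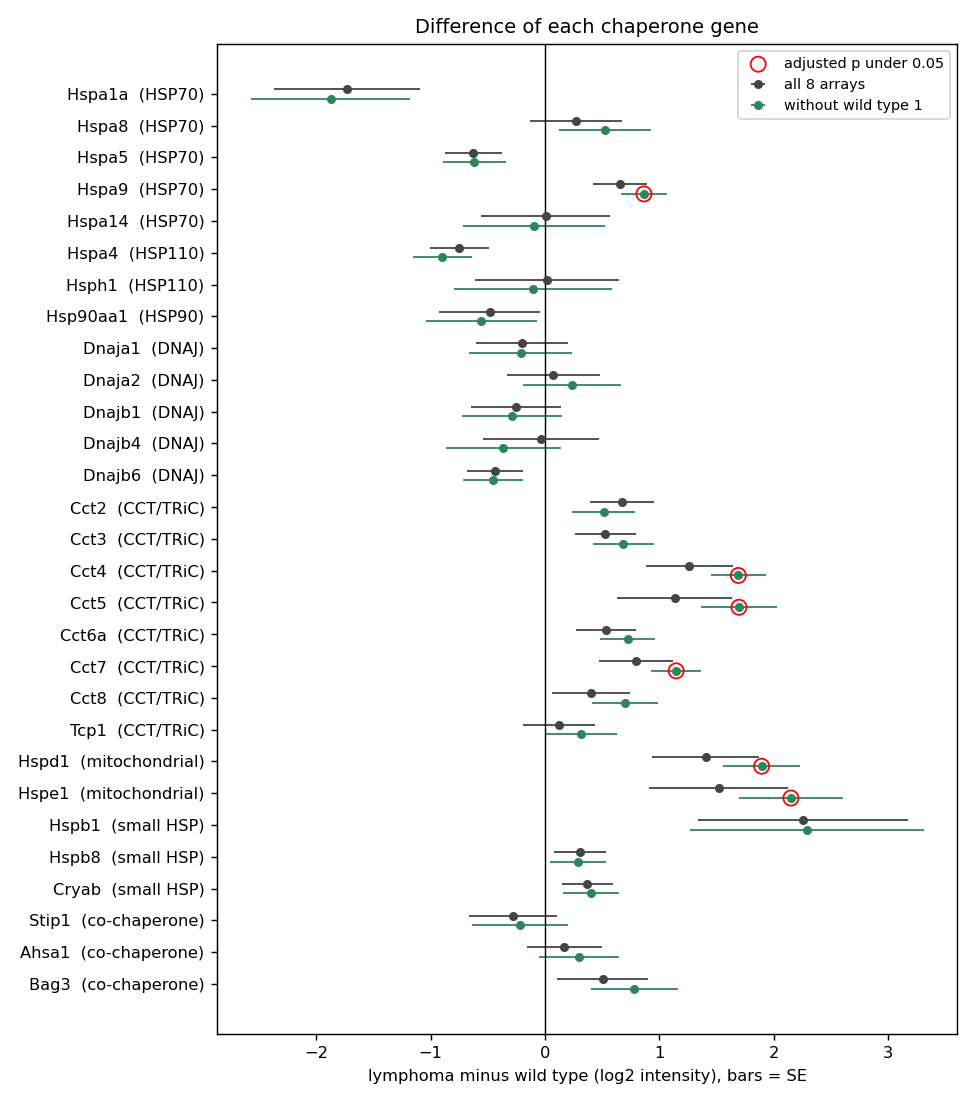
Lymphoma minus wild type for the 29 measured members, in log2 intensity with bars of 1 SE from limma, from all 8 arrays (grey) and without wild type 1 (green). All 10 chaperonin genes lie right of 0 in both fits, and the 6 red rings mark adjusted p under 0.05, all without wild type 1.

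By the brightest feature of each gene, the mitochondrial chaperonin gave the largest differences among the chaperonins. Hspd1, which builds the barrel, read 15.42, 13.22, 12.97 and 14.19 in wild type 1 to 4 and 14.95, 15.19, 15.94 and 15.32 in lymphoma 1 to 4. The lymphomas lay above wild type 2 to 4, and wild type 1 lay among them. The difference was 1.40 ± 0.46 on the log2 scale (SE, n = 4 per group), which is 2.64-fold, with an adjusted p of 0.175 in limma. Without wild type 1 it was 1.89 (adjusted p = 0.00642), and leaving out wild type 3 gave the lowest value, 1.07. Within slide 1, which holds wild type 1, it was 0.75, and within slide 2 it was 2.06. A second, dimmer Hspd1 feature differed by 0.34 (adjusted p = 0.724), so the size depends on the feature.

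Hspe1, the lid, read 14.69, 11.35, 11.72 and 13.46 in wild type and 14.27, 14.19, 14.93 and 13.90 in lymphoma. Here too every lymphoma lay above wild type 2 to 4 and wild type 1 lay inside the lymphoma range. The difference was 1.52 ± 0.61 (2.86-fold, adjusted p = 0.269), 2.15 without wild type 1 (adjusted p = 0.0155) and 1.03 without wild type 2 (adjusted p = 0.458). The wild type SD was 1.56 and the lymphoma SD 0.43. Hspa9, the HSP70 of the mitochondrial matrix, read 13.86, 13.05, 12.99 and 13.06 in wild type and 13.86, 13.85, 13.95 and 13.94 in lymphoma. The lymphoma values spanned a narrow range, which wild type 1 reached and the other controls did not. Its difference was 0.66 ± 0.24 (adjusted p = 0.217), and 0.86 without wild type 1 (adjusted p = 0.0250). A second Hspa9 feature was also higher in lymphoma, with means of 9.77 and 10.65 (adjusted p = 0.251).

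All 8 subunits of the CCT ring had a positive difference, with a median of 0.60 against 0.06 over all genes. Cct4 read 14.38, 12.75, 12.42 and 12.83 in wild type and 14.66, 14.23, 14.54 and 13.99 in lymphoma. Wild type 1 sat within the lymphoma range, more than 1 above the other controls. The difference was 1.26 ± 0.38 (2.39-fold, adjusted p = 0.135), and 1.69 without wild type 1 (adjusted p = 0.00207). Within slide 2, which does not hold wild type 1, Cct4 was the only member that passed, at 1.64 (adjusted p = 0.0385), where 6.75% of genes passed. The other Cct4 features lay near background and differed by -0.06 and -0.09.

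Cct5 read 15.91, 12.84, 14.46 and 13.69 in wild type and 15.29, 15.35, 15.45 and 15.33 in lymphoma. The 4 lymphomas were nearly equal (SD 0.07), wild type 1, where the feature was near the ceiling, lay above all of them and wild type 2 to 4 below. The difference of 1.13 ± 0.50 (adjusted p = 0.325) became 1.69 without wild type 1 (adjusted p = 0.0109) and 0.67 without wild type 2 (adjusted p = 0.520). Cct7 read 14.56, 13.29, 13.13 and 13.06 in wild type and 14.40, 14.29, 14.51 and 14.03 in lymphoma. Again only wild type 1 among the controls reached the lymphomas. The difference was 0.80 ± 0.32 (adjusted p = 0.275), and 1.15 without wild type 1 (adjusted p = 0.00979).

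The remaining CCT subunits differed less. Cct2 was 0.67 higher, Cct6a 0.53, Cct3 0.53, Cct8 0.40 and Tcp1, which is subunit 1, 0.13 higher in lymphoma. None of these passed with all arrays (adjusted p 0.284 for Cct2 and 0.894 for Tcp1) or without wild type 1. Leaving out wild type 2 took Cct8 to 0.18. By its brightest feature Cct2 was the exception to the pattern of the controls. Its wild type 1 value, 14.23, was the lowest of all 8 arrays, while wild type 1 was the highest control in the other 9 chaperonin genes, as it was in 26.3% of all genes. In a second, dimmer Cct2 feature wild type 1 lay 0.63 above the mean of the other controls. In 6 of the 10 chaperonin genes all lymphomas lay above wild type 2 to 4, where 11.5% of genes did so. Under the alternatives run, Tcp1 was the only subunit whose sign turned, to -0.21 within slide 1 and to as low as -0.07 when 1 array was left out.

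**Figure D2:**
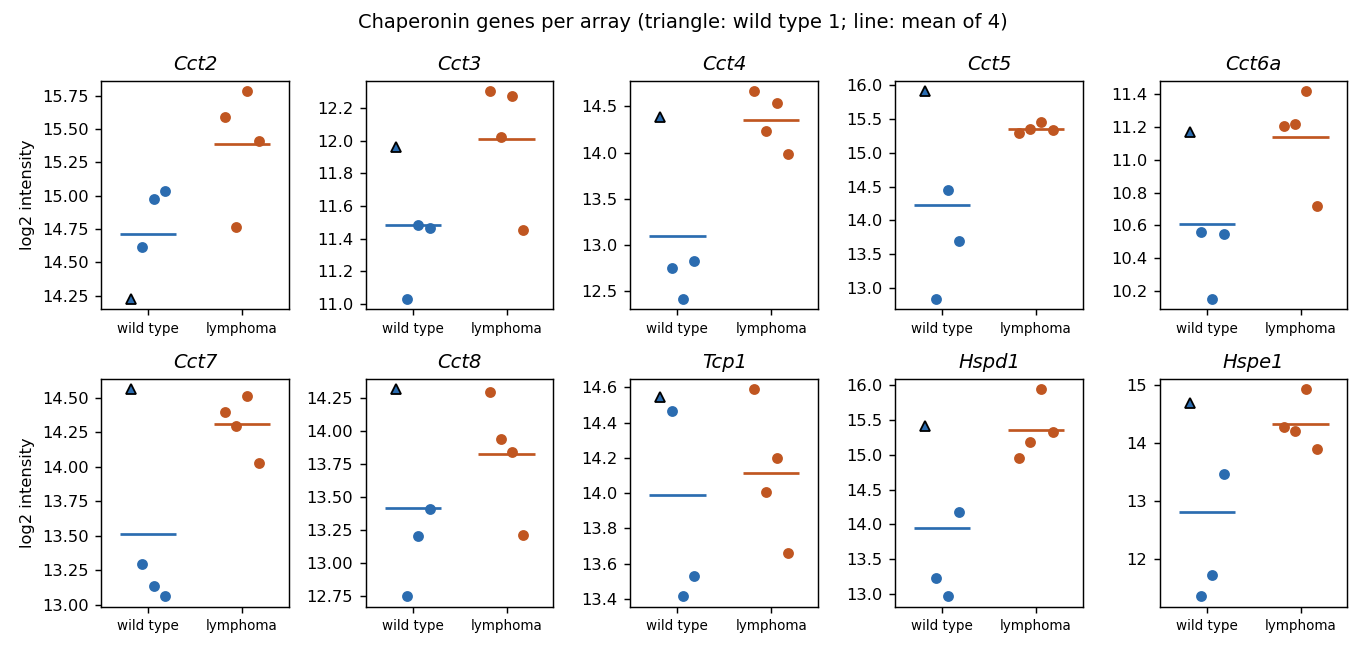
Log2 intensity of the 10 chaperonin genes on each array, with wild type in blue, lymphoma in orange, the mean of 4 as a line and wild type 1 as a triangle. Wild type 1 lies at or above the lowest lymphoma in 9 of the 10 genes and is the lowest array for Cct2.

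Outside the chaperonins, the 19 measured members had a median difference of 0.01, and 10 were positive. Without wild type 1 their median was -0.11, and 8 were positive. Hspa1a, the stress-induced HSP70, read 12.47, 14.32, 12.57 and 12.26 in wild type and 9.78, 10.79, 13.13 and 11.01 in lymphoma. Lymphoma 3 lay inside the wild type range and the other lymphomas below it. The difference was -1.73 ± 0.63 (3.31-fold lower in lymphoma, adjusted p = 0.226), -2.38 without lymphoma 3 (adjusted p = 0.0791), -3.11 within slide 1 and -0.35 within slide 2. With both wild type 1 and lymphoma 3 left out, a setting chosen after seeing the data, it fell by 2.52 (adjusted p = 0.0226, where 5.87% of genes passed). Whether these features also read Hspa1b, a near-identical paralog 10120 bases away on chromosome 17, was not tested, because no probe sequences were compared. Its value is uncertain in that respect.

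Hspa5, the HSP70 of the endoplasmic reticulum also known as BiP, read 15.84, 16.20, 15.47 and 15.72 in wild type and 15.36, 15.35, 15.35 and 14.64 in lymphoma. All lymphomas lay below all controls. The mean was 1.54-fold lower in lymphoma (log2 difference -0.63 ± 0.25, adjusted p = 0.264 in limma). The feature was near the ceiling on the 4 wild type arrays, which may limit the size of this difference. Hspa8, the constitutive HSP70 of the cytosol, differed by 0.27 and was near the ceiling on 3 wild type and 2 lymphoma arrays. Hspa14, an HSP70 that works at the ribosome, spread from 11.58 to 13.78 in wild type and from 11.80 to 13.93 in lymphoma, with means of 12.79 in both groups.

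Of the HSP110 nucleotide exchange factors, Hspa4 read 13.13, 14.32, 13.47 and 13.39 in wild type and 12.91, 12.75, 12.83 and 12.83 in lymphoma. The groups did not overlap, and the lymphoma SD was 0.07. The difference was -0.75 ± 0.26 (adjusted p = 0.201). In the other Hspa4 features the groups overlapped, with differences of 0.17, 0.25, -0.14 and -0.45. The mean of all 5 features of Hspa4 differed by -0.18, so this gap rests on the brightest one. Hsph1 read 13.48, 13.50, 14.05 and 14.35 in wild type and 12.28, 14.64, 15.75 and 12.78 in lymphoma. The lymphomas lay on both sides of the controls (SD 1.62 against 0.43), and the difference was 0.02 ± 0.63 (adjusted p = 0.995). Hsp90aa1, the stress-responsive cytosolic HSP90, read 15.28, 15.91, 15.00 and 15.79 in wild type and 13.64, 14.81, 15.86 and 15.74 in lymphoma. These groups overlapped, and the difference was -0.48 ± 0.44 (adjusted p = 0.662). It was -0.03 without lymphoma 1 and -0.77 without lymphoma 3, and its sign differed by slide, with -1.37 in slide 1 and 0.40 in slide 2.

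Among the DNAJ proteins, which stimulate the ATPase of HSP70, 4 of 5 differences were negative by the brightest feature and none passed. The differences were -0.20 for Dnaja1, 0.07 for Dnaja2, -0.25 for Dnajb1, -0.03 for Dnajb4 and -0.44 for Dnajb6. Other features of Dnaja1 and Dnajb1 were negative too. Those of Dnajb6 were 0.04 and 0.19. Those of Dnajb4, each at background on at least 1 array, were 0.93, 0.69 and 0.32. Averaged over features, 3 of 5 genes were negative, with a median of -0.07. Over all members, 14 of 24 other features above background on at least 1 array had the sign of the brightest one. Dnajb1 read 14.19, 13.99, 14.65 and 14.33 in wild type and 13.17, 14.30, 15.23 and 13.43 in lymphoma. Lymphoma 3 was the highest of the 8 arrays, and lymphoma 1 and 4 were the lowest. Dnaja1 had the same arrays at its extremes, with lymphomas from 13.16 to 15.34 around controls from 14.08 to 14.66.

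Hspb1 is a small heat shock protein that binds unfolding proteins without ATP. It read 8.90, 8.74, 8.78 and 8.73 in wild type and 10.06, 9.44, 14.79 and 9.87 in lymphoma. All lymphomas lay above all controls, and lymphoma 3 lay far above the other lymphomas. The difference was 2.25 ± 0.92 (4.76-fold, adjusted p = 0.280). Without lymphoma 3 it was 1.00 (2.00-fold, adjusted p = 0.115), so this 1 array decides the size. Within slide 1 it was 0.93 and within slide 2 it was 3.57. Hspb8 and Cryab, the other small heat shock proteins, were at background on all 8 arrays, and no fold is given for them.

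The co-chaperones did not pass either. Stip1, which links HSP70 to HSP90, read 12.36, 12.35, 11.90 and 12.09 in wild type and 11.33, 12.08, 13.12 and 11.07 in lymphoma. Lymphoma 3 was the highest and lymphoma 1 and 4 the lowest of the arrays, and the difference was -0.28 ± 0.38 (adjusted p = 0.789). Ahsa1, which activates the ATPase of HSP90, differed by 0.17 and Bag3, a partner of HSP70 in autophagy, by 0.50.

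**Figure D3:**
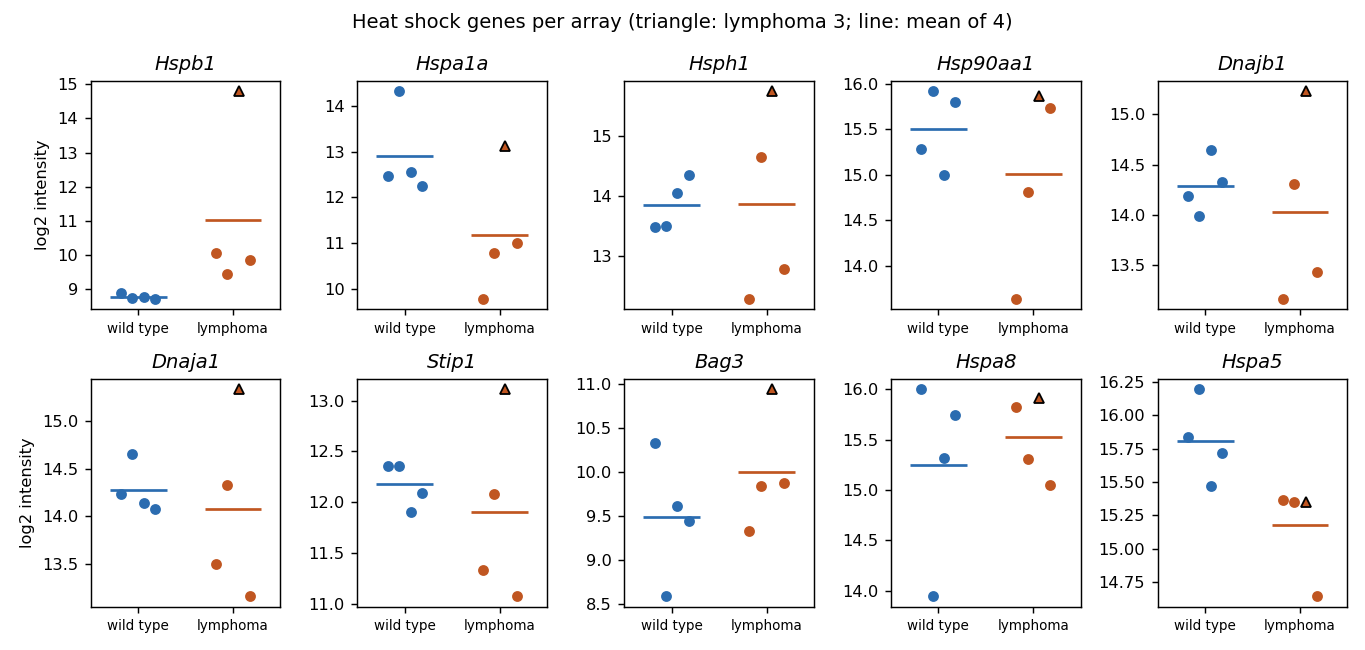
Log2 intensity of 10 heat shock genes on each array, with wild type in blue, lymphoma in orange, the mean of 4 as a line and lymphoma 3 as a triangle. Lymphoma 3 is the highest of the 8 arrays for Hspb1 (14.79), Hsph1, Dnajb1, Dnaja1, Stip1 and Bag3.

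Among the lymphomas, 9 of the 29 members had an SD over 0.9, against 3.17% of all genes, and none of the 9 was a chaperonin. Among the controls 7 members did so, against 6.69% of genes, and these included Cct5, Hspd1 and Hspe1. Lymphoma 3 was the highest of the 8 arrays in 13 of 29 members (44.8%), against 8.24% of all genes. It lay more than 1 above the mean of the other lymphomas in 10 members (34.5%), against 2.02% of genes. These were Hspb1 (5.0 above), Hspa1a (2.60), Hsph1 (2.51), Dnaja1 (1.68), Stip1 (1.62), Dnajb1 (1.59), Hspa14 (1.52), Bag3 (1.26), Dnajb4 (1.25) and Hsp90aa1 (1.13). Of all 19087 genes, only Fzd7, a Wnt receptor named here after its value was seen, lay further above than Hspb1, by 7.30. An excess over 1 was present in all 4 Hspa1a features, all 3 Dnaja1 features and both Dnajb1 features. It was not present in the other features of Dnajb4 (0.37, 0.36 and -1.26), Stip1 (-0.48) and Bag3 (0.26), most of which lay near or at background. Lymphoma 1 lay more than 1 below the mean of the other lymphomas in 7 members, against 2.48% of genes. Lymphoma 4 did so in 4 members, against 1.69% of genes. Each excess of lymphoma 3 is set against a mean that includes these low values. Hspa14, Hsp90aa1 and Dnajb4 were also high in lymphoma 4, by 1.08, 0.97 and 0.92, and low in lymphoma 1, by -1.27, -1.83 and -1.90. Each of these shares of lymphoma 1, 3 and 4 describes 1 array and has no replicate.

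By the brightest feature, the excess of lymphoma 3 in the chaperonins was 0.79 for Hspd1, 0.80 for Hspe1 and at most 0.53 among the CCT subunits. The brightest Hspd1 feature was near the ceiling on 1 lymphoma array and that of Cct2 on 2, which may limit their values. In lymphoma 3 the second Hspd1 feature lay 1.56 above the other lymphomas, and second features of Hspa9 and Hspa8 lay 1.34 and 1.23 above. In wild type 1 other members stood out. That array lay more than 1 above the other controls in 8 members (27.6%, against 6.97% of genes), by 2.52 for Hspe1, 2.25 for Cct5, 1.96 for Hspd1, 1.72 for Cct4, 1.40 for Cct7, 1.19 for Cct8, 1.11 for Bag3 and 1.00 for Hspa8. It lay more than 1 below them in Dnajb4 alone, by -1.32, where a second Dnajb4 feature lay 1.45 above. Median differences of wild type 1 from the other controls were 0.34 for proliferation genes, 0.30 for B cell markers, -0.49 for T cell markers, -0.72 for immediate early genes and -1.03 for erythroid markers. Those of lymphoma 3 from the other lymphomas were 0.70 for proliferation genes, 0.28 for T cell markers, -0.16 for immediate early genes, -0.17 for B cell markers and -0.39 for erythroid markers. The part of these shifts in the chaperone pattern was not tested.

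**Figure D4:**
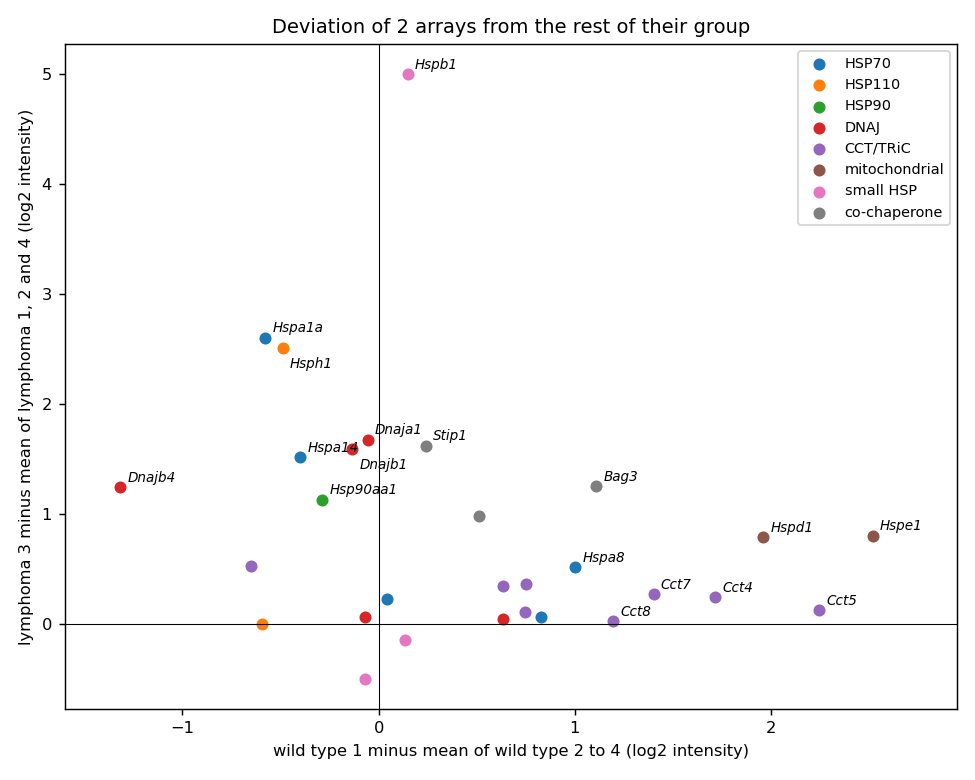
Each point is 1 member, with wild type 1 minus the mean of wild type 2 to 4 on the x axis and lymphoma 3 minus the mean of lymphoma 1, 2 and 4 on the y axis, both in log2 intensity, coloured by family. Hspb1, Hspa1a and Hsph1 lie high at an x near or below 0, and Hspe1, Cct5 and Hspd1 lie far right at a y under 1.

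Set beside the promoter windows, the 13 measured members with a heat shock element match had a median excess of 0.80 in lymphoma 3, and 6 of them exceeded 1. The 11 measured members whose window held no match had a median of 0.27, and 3 exceeded 1. The median over all genes was -0.11. Hspe1 and Hspd1, with 3 matches in their shared stretch, lay at 0.80 and 0.79, while Hspb1, with 2 matches, lay at 5.0. That stretch is counted for both genes, and Hspe1 is itself the median of the 13. Dnajb1, Stip1 and Hspa14 exceeded 1 with no match in their windows. Whether the matches bear on the excess was not tested.

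Other chaperone genes were counted in lists kept apart from the members. Of 97 measured, none passed in limma with all 8 arrays, 10 were higher (10.3%, against 8.19% of genes) and 6 lower (6.19%, against 7.73%) at an unadjusted p under 0.05. The difference was positive in 59 (60.8%, against 56.7% of genes), with a median of 0.15. These shares were near those of all genes. Among 16 HSP90 co-chaperones 12 were positive (median 0.22), and in Ptges3, Ppid and Stub1 all lymphomas lay above all controls. Over all genes 4.43% did so. In Hspa13, Pfdn5 and Hspb9, of the other lists, all lymphomas lay below all controls, where 5.55% of genes did so. Ptges3, the co-chaperone p23, was 1.21 higher (adjusted p = 0.148). Among 12 mitochondrial chaperones and proteases 10 were positive (median 0.38), beside the positive Hspd1, Hspe1 and Hspa9. Among 18 chaperones of the endoplasmic reticulum 15 were negative (median -0.14), beside the negative Hspa5. Without wild type 1 the median of this list was -0.02, so its tilt depends on that array. Among 16 prefoldin subunits and CCT or tubulin cofactors 12 were positive (median 0.33). Of 23 further partners of HSP70 12 were positive (median 0.04). Of 5 genes for heat shock factors and their binding proteins, 3 were at background on all arrays, as were 5 of 7 other small heat shock proteins.

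Without wild type 1, 6 of these 97 genes rose (6.19%, against 4.28% of all genes) and 1 fell (1.03%, against 3.87%). Pdcl, a phosducin-like protein, was 1.94 higher (adjusted p = 3.98e-04), and Txndc9, a thioredoxin-like protein that binds CCT, 1.61 higher (adjusted p = 0.00455). St13, an HSP70 partner, was 1.61 higher (adjusted p = 0.0251) and Grpel1, the exchange factor of Hspa9, 1.10 higher (adjusted p = 0.0209). The others were Sil1, the exchange factor of Hspa5, and Hsbp1, which binds heat shock factor 1. Pfdn5, a prefoldin subunit, fell by 1.10 (adjusted p = 0.0133). The other prefoldin subunits did not pass in that fit. Pfdn1, Pfdn4, Pfdn6 and Vbp1 differed by 0.45, 0.66, 0.47 and 0.64, and Pfdn2 by -1.4e-04.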

How the data were processed

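The authors deposited log2 intensities of 45220 features on 8 one-colour arrays. Per the labels, 0.5 µg of polyA RNA was labelled with Cy3. Scanner, background correction and normalization: not given in the sources used here. A scale factor per array remains unknown. Names came from the platform annotation, which lists a gene for 33709 features (56 with several symbols, unnamed) and none for 11511. Arrays were scaled to a common 75th percentile over the listed features. limma 3.58.1 (R 4.3.3; lmFit, eBayes, group only, two-sided) was fitted to all 33709 features with Benjamini-Hochberg adjustment, and a call is an adjusted p under 0.05. It was tested on simulated data. A gene is its feature with the highest mean over 8 arrays. The background bound was the 95th percentile of 1114 olfactory and vomeronasal receptor features per array (7.17 to 7.45), and near the ceiling means at least 80% of the array's highest intensity. All 32 members are named. Members, lists and rules were chosen with earlier results of these data known. That separate mice are replicates follows the design text. RefSeq promoters (GRCm38.p6) matched 25 members. The replicate numbers did not pair the samples.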

Additional observations from a re-analysis of the deposited data

Results flagged for a closer look

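In 7 of 58 groups of 4 arrays, 1 array lay far from the other arrays of its group. By chance the rule flags about 1 in 20 independent groups. These groups share arrays, and no rate over all genes is given, so an excess over chance was not tested. Wild type 1 was high for Cct7, at 14.563 with the next control at 13.29, and for Hspa9, at 13.8598 with the next at 13.06. Wild type 2 was high for Hspa1a, at 14.3209 with the next at 12.57. The same array was low for Dnaja2, at 10.9731 with the next at 12.80, and for Ahsa1, at 14.0592 with the next at 15.06. Lymphoma 3 was high for Hspb1, at 14.7873 with the next lymphoma at 10.06. Lymphoma 4 was low for Hspa5, at 14.6426 with the next at 15.35.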

How the results depend on the processing

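The direction of the CCT median held under every alternative run, and leaving out each array in turn gave 0.49 to 0.71 for it and 0.14 to 0.36 for the median over all members. Leaving out each array gave 84 to 2317 called features (557 with all arrays) and 0 to 6 called members, with the 6 reached without wild type 1. Array quality weights gave 2128 features and 4 members (Hspa9, Cct4, Cct7 and Hspd1, all higher, where 7.55% of genes passed), and slide 2 alone gave 1949 features and 1 member. Slide 1 alone gave 0 features in limma. At an unadjusted p under 0.05, 593 genes (3.11%) were higher and 497 (2.6%) lower, among them 1 member higher and 3 lower. Leaving out wild type 1 and lymphoma 3 together, chosen after seeing the data, gave 1612 features and 6 members (Cct4, Cct5, Cct7, Hspd1 and Hspe1 higher, Hspa1a lower, where 5.87% of genes passed). Fewer arrays entered the fits by slide and those that leave arrays out, and the cause of the other shifts was not tested. With the replicate block, 713 features and 0 members passed in limma. At an unadjusted p under 0.05, 8 members were higher (against 8.86% of genes) and 3 lower (against 8.3%). The pairing check used another measure than the correlations across features given above. On it the correlations of same-numbered arrays were 0.18, -0.04, 0.13 and -0.02, and 4 of 8 arrays correlated best with their own number. With the deposited scaling, 116 genes were higher and 301 lower, against 156 and 242, the median over all genes moved from 0.06 to -0.01, and Hspa14 and Hsph1 turned to -0.07 and -0.06. Averaging every feature per gene, the CCT median was 0.47, Cct4 differed by 0.37 and Hspd1 by 0.87. Signals near the ceiling on at least 1 array, in 8 members, limit the size of their differences.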
